A study of Mus musculus with 18 samples.

Results

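Acute-phase proteins are plasma proteins whose amounts shift during injury and inflammation, and the liver is their main source. Interleukin-6, which signals through its receptor and the shared subunit gp130 to STAT3, is known as their chief inducer, with interleukin-1, NF-kB and the C/EBP factors acting beside it. Several of them are also known to be made in lung, where epithelial cells and macrophages are sources. The 9 genes described here are Saa3, Lcn2, Serpina3n, Orm1, Cp, Hp and the 3 fibrinogen chain genes Fgg, Fga and Fgb. They were matched to every probe set (the group of short oligonucleotides that gives 1 value on the array) whose platform annotation named 1 of these genes alone. That gave 16 of the 45101 probe sets, 8 for Cp and 1 for each other gene. The genes were chosen because several of them were high in irradiated lung in these same arrays, so every irradiated against untreated value of the 9 is a description and carries no p-value.

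Total RNA of the right lung was hybridised to 18 single-colour oligonucleotide arrays, 3 in each of 6 groups. Irradiated mice came from 3 inbred strains, namely A/J, C57BL/6J (written C57BL6/J by the submitters) and C3H/HeJ. They had received 18 Gy of caesium gamma rays to the whole thorax at 8 weeks of age, with lead shielding that left 3% of the beam elsewhere, and were killed when moribund (over 20% weight loss with signs of distress). Irradiated A/J mice were 30 to 32 weeks old at death (22 to 24 weeks after exposure), irradiated C57BL/6J mice 28 to 30 (20 to 22 after) and irradiated C3H/HeJ mice 20 to 22 (12 to 14 after). Untreated mice of each strain were 15 to 26 weeks old and carried no other treatment in the labels. C3H/HeJ is known as a strain whose Tlr4, the endotoxin receptor, has lost its function. Radiation, moribund state and time since exposure cannot be told apart in any strain, and in A/J and C57BL/6J age goes with them. Time since exposure and age at death also differed between strains, so a difference of effects between strains cannot be told apart from them. In whole lung, fewer cells of a type and less RNA per cell cannot be told apart either.

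Values below are normalized log2 signals, log2(signal + 7) after quantile normalization, and a gene or difference is "called" when its Benjamini-Hochberg adjusted p in limma, over 12412 genes, lies under 0.05. The 2% trimmed mean of the deposited signals ran from 46.3 to 176 between arrays. Without further scaling the median gene differed between irradiated and untreated lung by 0.56 (A/J), 0.06 (C57BL/6J) and 0.61 (C3H/HeJ), against 0.09, −0.01 and 0.01 after quantile normalization. Actin signal from 5' probes over that from 3' probes, which falls as RNA degrades, was 0.413 to 0.551 in irradiated A/J lung and 0.730 to 0.742 in untreated A/J lung, and 0.677 to 0.766 in the arrays of the other strains. The part of RNA quality in the A/J differences below was not tested. The squamous keratin Krt4 stood at 10.91 in A/J irradiated array 3 and at 11.52 and 11.75 in C57BL/6J untreated arrays 1 and 3, against 6.13 at most elsewhere. On a scale of 26 genes set at 0 in untreated A/J and 1 in untreated C3H/HeJ, C3H/HeJ irradiated array 3 lay at 0.44 and the other irradiated C3H/HeJ arrays at 0.87 and 0.84. The C3H/HeJ differences of Saa3, Lcn2, Serpina3n, Orm1, Fgg and Cp, and the Saa3 differences of effects, are also given without it. Sizes and list counts printed for other genes include it.

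Promoter sequence was available for 7 of the 9 genes, and 4 are shown: Saa3, which had the largest difference between irradiated and untreated lung, and the fibrinogen genes, which lie next to each other. Of these, Fgg and Fga were higher in irradiated lung, and Fgb, read by 1 probe set, was at the bottom of the scale. Each line gives the 250 bases before the RefSeq start (GRCm38.p6), 5′ to 3′ on the gene's strand, with matches to 3 motifs in capitals. Saa3 lies at chr7:46715677-46715926 (minus strand), Fgg at chr3:83007474-83007723 (plus), Fga at chr3:83025903-83026152 (plus) and Fgb at chr3:83049864-83050113 (minus).
Saa3: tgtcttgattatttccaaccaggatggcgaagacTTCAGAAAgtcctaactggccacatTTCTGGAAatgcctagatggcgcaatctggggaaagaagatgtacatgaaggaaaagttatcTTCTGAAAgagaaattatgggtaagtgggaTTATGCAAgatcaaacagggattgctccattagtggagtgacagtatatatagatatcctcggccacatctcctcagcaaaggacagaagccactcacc
Fgg: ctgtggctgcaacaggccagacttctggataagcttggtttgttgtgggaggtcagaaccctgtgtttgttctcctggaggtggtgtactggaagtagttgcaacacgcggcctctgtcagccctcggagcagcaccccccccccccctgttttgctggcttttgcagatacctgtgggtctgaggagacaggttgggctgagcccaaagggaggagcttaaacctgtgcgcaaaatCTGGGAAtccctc
Fga: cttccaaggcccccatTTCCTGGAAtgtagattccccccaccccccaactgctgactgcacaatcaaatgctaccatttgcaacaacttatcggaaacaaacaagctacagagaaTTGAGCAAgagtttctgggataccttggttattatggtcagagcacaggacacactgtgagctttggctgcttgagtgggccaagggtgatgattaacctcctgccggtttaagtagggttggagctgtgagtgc
Fgb: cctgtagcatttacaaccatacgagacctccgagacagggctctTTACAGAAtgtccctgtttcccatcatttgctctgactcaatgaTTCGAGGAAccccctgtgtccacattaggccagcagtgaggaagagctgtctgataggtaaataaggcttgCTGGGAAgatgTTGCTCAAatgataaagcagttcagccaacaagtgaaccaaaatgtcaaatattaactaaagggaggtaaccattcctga

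The motifs were searched on both strands. They were TTNNGNAA (the kind of half-matched palindrome bound by C/EBP factors), TTCNNNGAA (bound by STAT factors) and CTGGGAA. The last is the form searched here for the core known from interleukin-6 response elements of rat fibrinogen genes, and shorter forms were not searched. No 2 of the matches shown overlap. Saa3 held 4 C/EBP-type matches, first bases at −216, −191, −129 and −99 from the start, and neither of the other motifs. At least 1 such match occurs in 36.8% of the 32851 promoters in the table, and 4 or more in 0.591%. Fgg held CTGGGAA at −13 and no other match, Fga a STAT-type match at −234 and a C/EBP-type match at −135. The Fga window also holds ctgggat, which differs from CTGGGAA in its last base and so was not counted. Fgb held all 3 kinds, with C/EBP-type matches at −206 and −80, a STAT-type match at −162 and CTGGGAA at −91. The STAT-type motif occurs in 7.02% of promoters and CTGGGAA in 9.1%. Among the genes not shown, Lcn2 held 1 C/EBP-type match, Serpina3n 2, and Cp 1 before each of its 2 annotated starts. None of the 7 genes held the NF-kB-type motif, found in 0.98% of promoters. A match is only a run of letters, and no match says only that these letters are not in this window.

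Saa3, Lcn2, Serpina3n, Orm1, Fgg, Fga and Cp (by its brightest probe set) had higher signals in irradiated lung in all 3 strains. Their irradiated and untreated arrays did not overlap within a strain, though Fga was dim. Haptoglobin, Hp, was bright and moved by 0.17 or less, and Fgb was at the bottom of the scale everywhere. Of the 7 genes that passed the filter (above the overall median in at least 3 arrays), 6 were called higher in each strain, where 15.1% of all genes were called higher for A/J, 2.99% for C57BL/6J and 12.8% for C3H/HeJ. The shares called lower were 8.95%, 2.36% and 10.6%, and in either direction 24.1%, 5.35% and 23.5%. Every irradiated array lay above every untreated array for 25.2%, 11.7% and 21.4% of all genes. Nothing is read from these counts, because the genes were chosen on these contrasts, and because Orm1 passed the filter through 9 irradiated arrays and 1 untreated array and Fgg through 4 irradiated arrays and 1 untreated array.

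**Figure D1:**
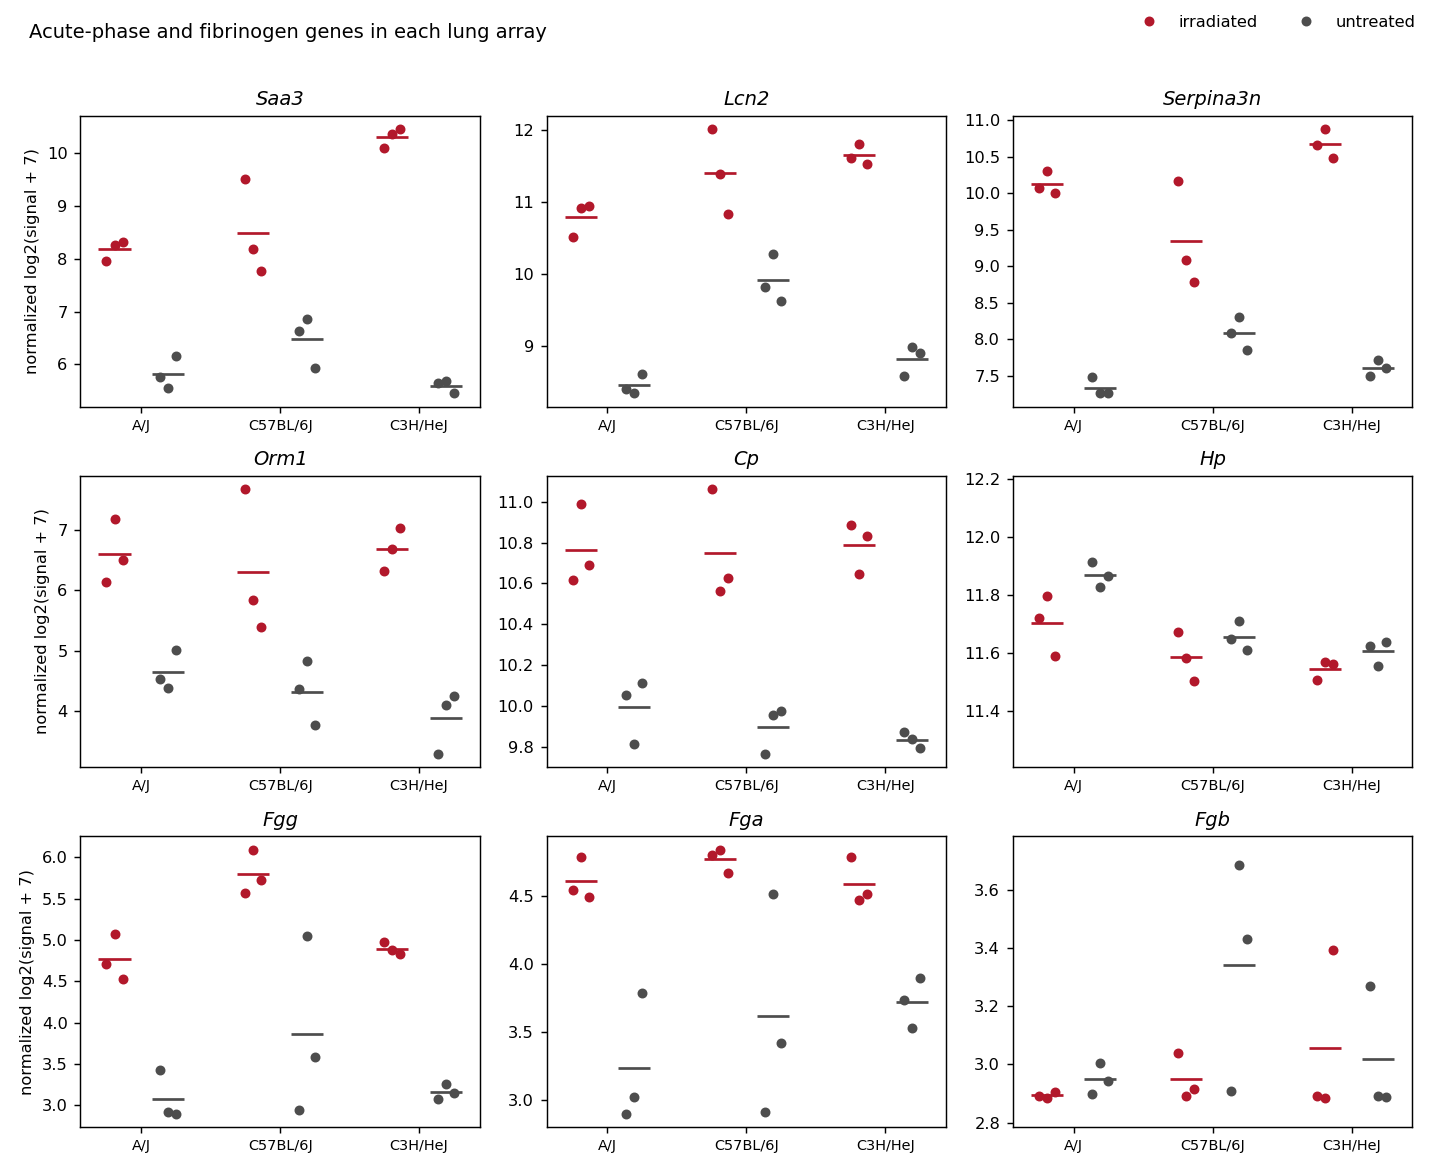
Normalized log2(signal + 7) of the 9 genes (vertical axes, each with its own range) in the 18 arrays, by strain, with irradiated arrays in red left of untreated arrays in grey, 1 point per array and a line at the group mean (n = 3). Saa3 reached 10.09 to 10.45 in irradiated C3H/HeJ lung, and Fgb did not pass 3.69 in any array.

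Saa3, a serum amyloid A that mice make mainly outside the liver, had the widest span. Its signals were 7.97, 8.27 and 8.32 in the irradiated A/J arrays, against 5.76, 5.56 and 6.16 in the untreated ones. Irradiated C57BL/6J lung gave 9.51, 8.19 and 7.76, and untreated C57BL/6J lung 6.63, 6.85 and 5.93. Irradiated C3H/HeJ lung gave 10.09, 10.36 and 10.45, and untreated C3H/HeJ lung 5.65, 5.69 and 5.45. No irradiated array overlapped the untreated arrays of its strain, and array 1 stood well above the other 2 in irradiated C57BL/6J lung. The differences were 2.36 ± 0.33 for A/J (SE, 3 arrays against 3, as for all differences below), 2.01 ± 0.33 for C57BL/6J and 4.71 ± 0.33 for C3H/HeJ, or 5.13-fold, 4.04-fold and 26.1-fold. By group mean the order was irradiated C3H/HeJ (10.30), irradiated C57BL/6J (8.49), irradiated A/J (8.18), untreated C57BL/6J (6.47), untreated A/J (5.83) and untreated C3H/HeJ (5.60). Irradiated C57BL/6J and A/J arrays overlapped, and so did the untreated A/J arrays with those of either other strain.

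The size of the Saa3 response differed between strains. The irradiation effect was larger in C3H/HeJ than in A/J by 2.35 ± 0.47 (adjusted p = 0.0293) and than in C57BL/6J by 2.69 ± 0.47 (adjusted p = 0.00978). Without C3H/HeJ irradiated array 3 these differences were 2.27 ± 0.51 (adjusted p = 0.041) and 2.62 ± 0.51 (adjusted p = 0.0237). The first lost its call in 11 of 27 other settings, with adjusted p up to 0.0707 and a size of 2.18 to 2.48. These were no filter, leaving out the 3 arrays high in squamous keratins, and leaving out any one of A/J untreated arrays 1, 2 and 3, A/J irradiated array 1, C3H/HeJ irradiated arrays 1 and 2, or C3H/HeJ untreated arrays 1, 2 and 3. The second was lost in 1 setting, without the 3 arrays high in squamous keratins, where it was 3.07 ± 0.58 (adjusted p = 0.0605). These tests use the arrays on which the genes were chosen and are not independent evidence. Between C57BL/6J and A/J the effect differed by −0.35, with a 95% interval of −1.35 to 0.65 (adjusted p = 0.722).

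Lcn2 encodes lipocalin-2, which withholds iron from bacteria by binding their siderophores. Its irradiated A/J arrays read 10.52, 10.92 and 10.94, against 8.40, 8.35 and 8.62 untreated. In C57BL/6J the irradiated arrays read 12.01, 11.39 and 10.83, against 9.83, 10.28 and 9.63 untreated. In C3H/HeJ they read 11.61, 11.80 and 11.53, against 8.58, 8.99 and 8.90 untreated. The groups did not overlap in any strain, and the differences were 2.34 ± 0.24 for A/J, 1.49 ± 0.24 for C57BL/6J and 2.82 ± 0.24 for C3H/HeJ. The irradiation effect in C3H/HeJ exceeded that in C57BL/6J by 1.33 ± 0.34, short of the threshold (adjusted p = 0.0587), with an interval of 0.62 to 2.04. Untreated lung set C57BL/6J apart. Its Lcn2 mean was 9.91, against 8.46 in untreated A/J, a difference of 1.46 ± 0.24 (2.75-fold, adjusted p = 0.000717), and untreated C3H/HeJ lung at 8.82 lay below untreated C57BL/6J lung at 9.91 by −1.09 ± 0.24 (adjusted p = 0.00724). Both calls held in all 27 other settings, with adjusted p up to 0.00859 and 0.0383. The lowest untreated C57BL/6J array (9.63) was above the highest untreated array of the other strains (8.99).

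Serpina3n, a serine protease inhibitor related to human antichymotrypsin, read 10.07, 10.30 and 10.00 in irradiated A/J lung and 7.48, 7.25 and 7.26 in untreated A/J lung. In C57BL/6J it read 10.17, 9.09 and 8.79 in irradiated lung and 8.08, 8.31 and 7.85 in untreated lung. Irradiated C3H/HeJ arrays gave 10.67, 10.88 and 10.49, and untreated ones 7.50, 7.71 and 7.60. All irradiated arrays lay above the untreated arrays of their strain, and irradiated C57BL/6J arrays 2 and 3 lay below every irradiated array of the other strains. The differences were 2.79 ± 0.25 (6.92-fold) for A/J, 1.27 ± 0.25 (2.41-fold) for C57BL/6J and 3.07 ± 0.25 (8.42-fold) for C3H/HeJ. The effect in C57BL/6J was smaller than in A/J by −1.52 ± 0.35 (adjusted p = 0.0213), and the effect in C3H/HeJ was larger than in C57BL/6J by 1.80 ± 0.35 (adjusted p = 0.0199). These calls were lost in 4 and 5 of 27 other settings, with adjusted p up to 0.0943 and 0.112. Each was lost without the 3 arrays high in squamous keratins, when only the groups compared were fitted, and without C57BL/6J irradiated array 2. The first was also lost without A/J untreated array 2, and the other without C3H/HeJ irradiated array 2 or C3H/HeJ untreated array 1.

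Of the 7 genes fitted, 1 was called for a difference of effects between C57BL/6J and A/J (Serpina3n), 1 between C3H/HeJ and A/J (Saa3) and 2 between C3H/HeJ and C57BL/6J (both), where 5.45%, 1.06% and 1.6% of all genes were called. For Orm1, Fgg, Hp and Cp no difference of effects passed the threshold. The intervals remain wide for Orm1, −1.40 to 1.43 between C57BL/6J and A/J and −0.58 to 2.25 between C3H/HeJ and A/J. They are narrower for Hp after quantile normalization, with −0.16 to 0.35 and −0.15 to 0.36 for the same pairs. Over the other settings these Hp differences of effects ran from −0.34 to 0.14 and from 0.05 to 0.24. Among untreated strains 1 of the 7, Lcn2, was called between C57BL/6J and A/J and between C3H/HeJ and C57BL/6J, and none between C3H/HeJ and A/J, where 10.4%, 10.8% and 4.5% of all genes were called. In the last pair Hp came nearest among the 7 by adjusted p, at −0.26 ± 0.08 (adjusted p = 0.0942).

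**Figure D2:**
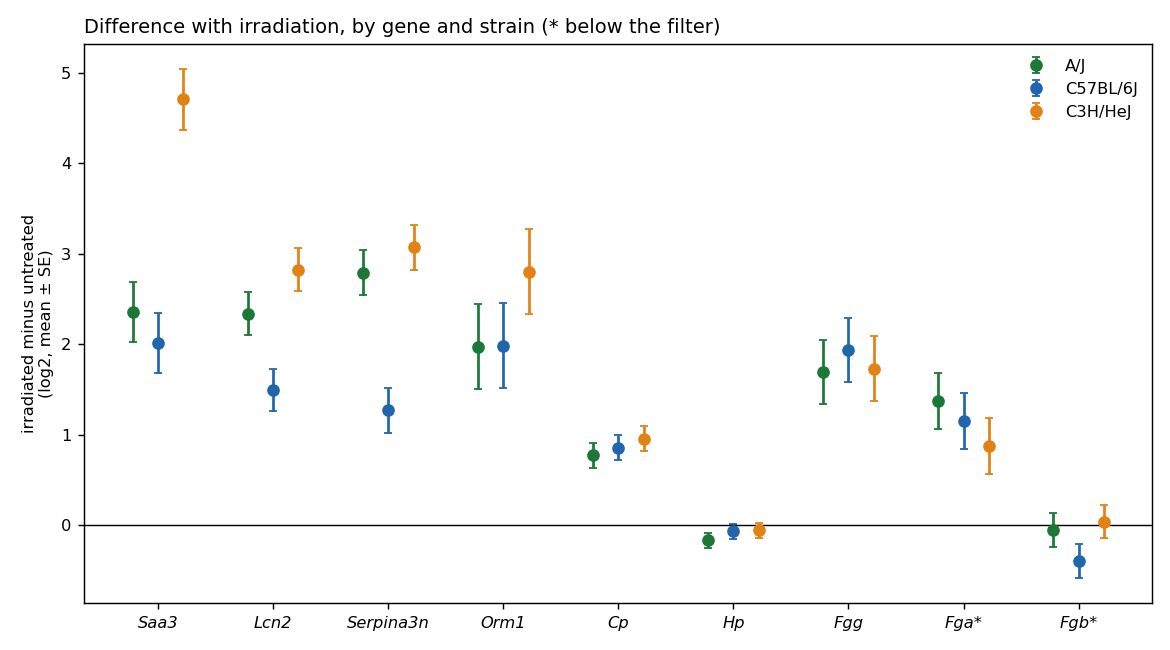
Irradiated minus untreated normalized log2 signal (vertical axis) of each gene in A/J (green), C57BL/6J (blue) and C3H/HeJ (orange), as the limma estimate with its standard error (3 arrays against 3). Saa3 in C3H/HeJ stands at 4.71 and Hp at −0.17 to −0.06 (0.31, −0.03 and 0.55 without scaling), and Fga and Fgb, marked with an asterisk, were below the filter and come from a fit of probe sets.

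Orm1 encodes alpha-1-acid glycoprotein, a plasma carrier of lipids and drugs. It read 6.14, 7.18 and 6.51 in irradiated A/J lung and 4.53, 4.37 and 5.02 in untreated A/J lung. In C57BL/6J the values were 7.68, 5.84 and 5.39 with irradiation and 4.37, 4.83 and 3.76 without. In C3H/HeJ they were 6.32, 6.69 and 7.04 with irradiation and 3.29, 4.09 and 4.25 without. The groups did not overlap, but irradiated C57BL/6J array 1 stood far above its other 2 arrays, with a deposited signal of 218 against 42.9 and 31.8. The differences were 1.97 ± 0.47 for A/J, 1.98 ± 0.47 for C57BL/6J and 2.80 ± 0.47 for C3H/HeJ. Without irradiated array 1 the C57BL/6J difference was 1.30 and no longer called, and its call was also lost without untreated array 1 or untreated array 3. Without C3H/HeJ irradiated array 3 the C3H/HeJ difference was 2.62. Orm1 has near-identical relatives, and how far they bind its probes was not tested. The probe sets of its relatives Orm2 and Orm3 did not pass the filter, with deposited signals of 0.6 to 20.9 and 0.5 to 11.2 in irradiated lung and 0.2 to 11.4 and 0.7 to 17.7 in untreated lung.

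Ceruloplasmin, Cp, is the copper-carrying ferroxidase of plasma, and the probe set 1417494_a_at, its brightest, stood for it. That probe set read 10.62, 10.99 and 10.69 in irradiated A/J lung and 10.05, 9.81 and 10.11 in untreated A/J lung. In C57BL/6J it read 11.06, 10.56 and 10.63 with irradiation and 9.77, 9.95 and 9.97 without. In C3H/HeJ it read 10.89, 10.65 and 10.84 with irradiation and 9.87, 9.84 and 9.79 without. The difference was thus of nearly one size in the 3 strains, 0.77 ± 0.14, 0.85 ± 0.14 and 0.96 ± 0.14, with intervals for the difference of effects of −0.34 to 0.50 between C57BL/6J and A/J and −0.23 to 0.60 between C3H/HeJ and A/J. With the mean of its probe sets in place of the brightest, the effect was larger in C57BL/6J than in A/J by 0.75 (adjusted p = 0.0415).

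The 8 probe sets of Cp did not move alike. In C57BL/6J all 8 were higher in irradiated lung, by 0.60 to 1.19. In C3H/HeJ all 8 were higher too, by 0.09 to 0.96. Irradiated and untreated C3H/HeJ arrays overlapped for 1417496_at (0.10 ± 0.29), 1417497_at (0.09 ± 0.16) and 1441326_at (0.52 ± 0.28). In A/J 6 were higher and 2 lower, with overlap of arrays for 1448734_at and 1448735_at among the higher ones. Probe set 1417496_at read 6.23, 7.58 and 7.50 in irradiated A/J lung, against 8.80, 8.15 and 8.31 in untreated A/J lung, a difference of −1.31 ± 0.29. Probe set 1441326_at read 4.04, 5.03 and 4.67, against 6.27, 6.12 and 5.63, a difference of −1.43 ± 0.28. Both were lowest in A/J irradiated array 1, the array with the lowest actin ratio (0.413). The mean over the 8 gave 0.07 in A/J, where Cp was then no longer called, and 0.82 and 0.54 in C57BL/6J and C3H/HeJ. Where on the transcript each probe set lies is not given in the sources used here, and the part of RNA quality in the A/J pattern was not tested.

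**Figure D3:**
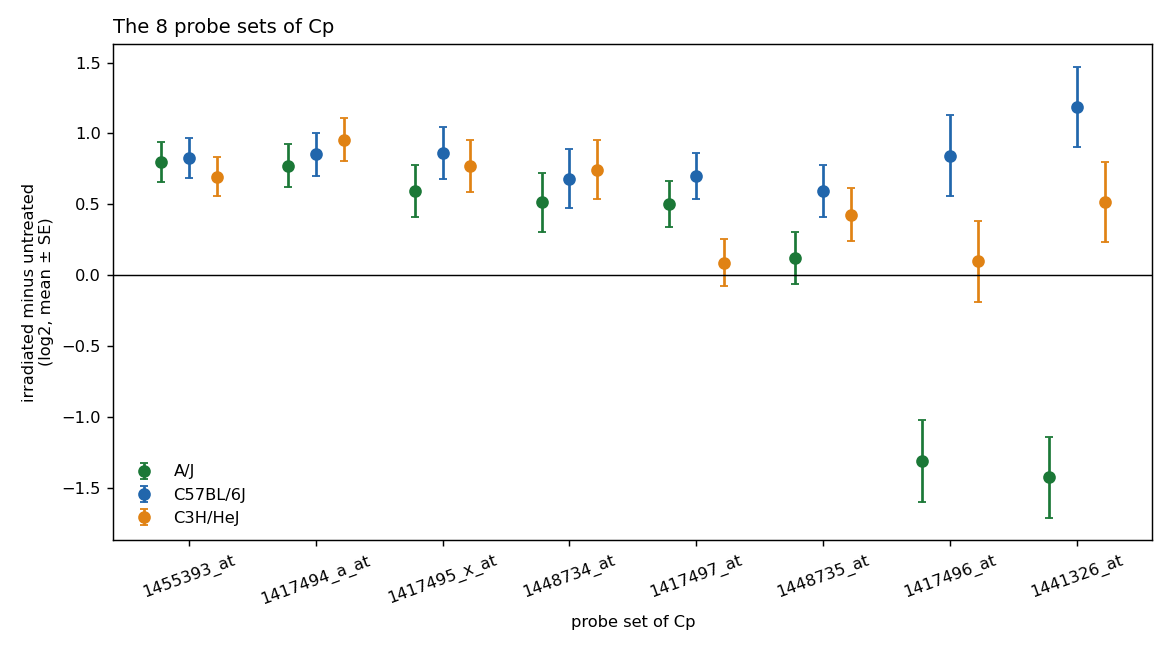
Irradiated minus untreated normalized log2 signal (vertical axis, estimate ± SE, 3 arrays against 3) of the 8 probe sets that name Cp alone (horizontal axis, ordered by the A/J value), in A/J (green), C57BL/6J (blue) and C3H/HeJ (orange). The last 2 probe sets lie at −1.31 and −1.43 in A/J and above 0 in both other strains. In C3H/HeJ they stand at 0.10 ± 0.29 and 0.52 ± 0.28, with overlapping arrays.

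Haptoglobin, Hp, which binds haemoglobin released from red cells, was bright in every array and was called in no strain. It read 11.72, 11.80 and 11.59 in irradiated A/J lung and 11.91, 11.83 and 11.87 in untreated A/J lung, so that irradiated lung was lower without overlap on this scale (higher without scaling or with median centring, 0.31 and 0.08). It read 11.67, 11.58 and 11.50 in irradiated C57BL/6J lung and 11.65, 11.71 and 11.61 in untreated C57BL/6J lung, which overlap. Irradiated C3H/HeJ arrays gave 11.51, 11.57 and 11.56 and untreated ones 11.62, 11.56 and 11.64, which overlap as well. The differences were −0.17 ± 0.08 (A/J), −0.07 ± 0.08 (C57BL/6J) and −0.06 ± 0.08 (C3H/HeJ). Their 95% intervals were −0.35 to 0.01, −0.25 to 0.11 and −0.24 to 0.12. Their sign depended on the scaling. Without scaling they were 0.31, −0.03 and 0.55, beside shifts of the median gene of 0.56, 0.06 and 0.61, and after median centring 0.08, −0.08 and 0.18. The mean of Hp ranks at percentile 99.6 of all probe sets.

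Fibrinogen is assembled from 3 chains and is cut by thrombin to form the fibrin of clots and of exudates in injured lung. Its genes Fgg, Fga and Fgb lie on chromosome 3 in that order, with no other protein-coding gene between them. Fgg, the gamma chain, had deposited signals of 30.1, 34.9 and 14.1 in irradiated A/J lung and 4.2, 0.5 and 0.4 in untreated A/J lung. In C57BL/6J it had 46.3, 51.7 and 41.5 with irradiation and 0.5, 24.9 and 5.5 without. In C3H/HeJ it had 27.2, 18.4 and 29.9 with irradiation and 1.1, 2.3 and 1.8 without. The groups did not overlap, and untreated C57BL/6J array 2 stood out among the untreated arrays. The log2 differences were 1.69 ± 0.36 for A/J, 1.94 ± 0.36 for C57BL/6J and 1.73 ± 0.36 for C3H/HeJ. Fgg is dim, and its sizes ranged from 0.65 to 3.27, 0.75 to 2.94 and 0.69 to 3.03 over the other settings. Without the 3 arrays high in squamous keratins, which leaves only untreated array 2 in C57BL/6J, its Fgg difference was 0.75.

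Fga, the alpha chain, was above the overall median in no array and so entered no gene-level test. Its deposited signals were 25.4, 26.3 and 13.6 in irradiated A/J lung and 0.5, 1.1 and 6.1 in untreated A/J lung. They were 23.8, 19.1 and 17.0 in irradiated C57BL/6J lung, against 0.4, 15.8 and 4.1 in untreated C57BL/6J lung, and 23.0, 12.4 and 21.2 in irradiated C3H/HeJ lung, against 4.5, 4.1 and 7.2 in untreated C3H/HeJ lung. Irradiated arrays lay above untreated arrays in each strain, by 1.37 ± 0.31, 1.15 ± 0.31 and 0.87 ± 0.31 on the log2 scale. Untreated C57BL/6J array 2 was again the highest untreated array. With no filter, Fga was called in A/J and not in C57BL/6J or C3H/HeJ. Fgb, the beta chain, had deposited signals of 0.3 to 4.4 in irradiated lung and 0.4 to 6.0 in untreated lung, and differed by −0.05 ± 0.19, −0.39 ± 0.19 and 0.04 ± 0.19 with overlapping groups. Fgb was above the overall median in no array. With 1 probe set, an absent transcript and a probe set that fails to detect it cannot be told apart.

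In some groups the same array was the highest for most of the 9 genes. How often that array is highest over all genes was not computed, and the 9 include Fgb at the bottom of the scale. In irradiated C57BL/6J lung array 1 was the highest of the 3 for 7 of the 9 genes, and in untreated C57BL/6J lung array 2 was the highest for 8 of 9. That untreated array was the only one of its group not high in Krt4 (4.43, against 11.52 and 11.75 in arrays 1 and 3). In irradiated A/J lung array 2 was highest for 6. In irradiated C3H/HeJ lung each of the 3 arrays was highest for 3. Arrays 1, 2 and 3 were highest for 2, 4 and 3 genes in untreated C3H/HeJ lung, and for 3, 1 and 5 in untreated A/J lung. Across all 18 arrays Saa3 correlated with Serpina3n at r = 0.95, Lcn2 at 0.94 and Orm1 at 0.89, Fgg with Fga at 0.88, and Hp with Saa3 at −0.45. Irradiated and untreated arrays form separate clusters for most of these genes, so the coefficients are descriptions over pooled arrays and no p is given. Outside the 9 genes, the closest patterns over the 18 arrays were those of Cd14 for Saa3 (r = 0.98), Bhlhe40 for Lcn2 (0.97), Mt1 for Serpina3n (0.98), Ccl9 for Orm1 (0.96), Pld4 for Fgg (0.94), Lgals3bp for Fga (0.91) and Lrg1 for Cp (0.95). The best for Hp was Ppp1r16b at 0.84, and for Fgb Tlcd3b at 0.74.

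Other genes known as positive acute-phase genes were taken from a list of 32, of which 13 passed the filter. With irradiation 8 rose and 0 fell for A/J, 4 rose and 1 fell for C57BL/6J, and 11 rose and 0 fell for C3H/HeJ, which is 61.5%, 30.8% and 84.6% rising beside the 15.1%, 2.99% and 12.8% of all genes. Saa1, Fgl1, A2m and Ptx3 passed the filter through irradiated arrays alone, as all their untreated arrays lay below the overall median (4.98). Their place among the 13 thus depended on high irradiated values, so nothing is read from these shares. The tests of these genes are not independent evidence for the same reason. The list's median difference was 0.72, 0.51 and 1.16, beside 0.09, −0.01 and 0.01 for all genes. Lrg1, a leucine-rich plasma glycoprotein, rose in all 3 strains, by 1.61 ± 0.23 (adjusted p = 0.000142), 1.31 ± 0.23 (adjusted p = 0.00454) and 1.47 ± 0.23 (adjusted p = 0.000311). The complement factor Cfb rose by 1.02 ± 0.23 in A/J (adjusted p = 0.00438), 0.90 ± 0.23 in C57BL/6J (adjusted p = 0.0321) and 1.85 ± 0.23 in C3H/HeJ (adjusted p = 4.74e-05). Saa1, a serum amyloid A of the liver, was dim but rose by 0.59 ± 0.15, 0.60 ± 0.15 and 1.17 ± 0.15 (adjusted p = 0.0108, 0.0317 and 7.39e-05). Itih4, an inter-alpha-inhibitor chain, rose by 0.75 ± 0.24, 0.91 ± 0.24 and 1.03 ± 0.24 (adjusted p = 0.0326, 0.0401 and 0.00592).

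For A2m, Ptx3 and Hamp the effect differed between strains. A2m, Fgl1 and Ptx3 passed the filter through irradiated arrays alone, so their tests are not independent evidence. A2m, alpha-2-macroglobulin, read 6.28 in irradiated and 3.61 in untreated A/J lung, a rise of 2.66 ± 0.35 (adjusted p = 7.88e-05), and rose by 1.58 ± 0.35 in C3H/HeJ (adjusted p = 0.00429). In C57BL/6J it differed by 0.35 ± 0.35 (adjusted p = 0.642), and the effect was smaller there than in A/J by −2.31 ± 0.50 (adjusted p = 0.0146). Fgl1, a fibrinogen-related liver protein, rose by 1.18 ± 0.21 in A/J and 1.16 ± 0.21 in C3H/HeJ (adjusted p = 0.000906 and 0.00107), with 0.30 ± 0.21 in C57BL/6J (adjusted p = 0.472). No difference of effects between strains was called for Fgl1 (−0.88 ± 0.30 for C57BL/6J minus A/J, adjusted p = 0.0976). The pentraxin Ptx3 rose by 1.81 ± 0.24 in C3H/HeJ (adjusted p = 7.39e-05), more than in C57BL/6J by 1.46 ± 0.33 (adjusted p = 0.0429). Hamp, the iron hormone hepcidin, fell by 1.64 on the log2 scale in C57BL/6J, to 5.55 in irradiated lung against 7.19 in untreated lung (SE 0.18, adjusted p = 0.000117). It differed by 0.38 ± 0.18 in A/J and −0.07 ± 0.18 in C3H/HeJ, neither called, and the effect in C57BL/6J was lower than in A/J by −2.01 ± 0.25 (adjusted p = 0.000505).

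Inducing cytokines, receptors and transducers were represented by 25 of 28 listed genes. Of these 4 rose and 2 fell for A/J, 1 rose and 2 fell for C57BL/6J, and 10 rose and 3 fell for C3H/HeJ, with medians of 0.18, 0.20 and 0.31. That is 16%, 4% and 40% rising, near the share of all genes in A/J and C57BL/6J. The shares of all genes were 15.1%, 2.99% and 12.8%, and nothing is read from the list's shares. Il6 passed the filter through irradiated arrays alone, so its tests are not independent evidence. Il6 read 7.72, 5.95 and 5.75 in irradiated A/J lung and 3.88, 4.05 and 4.20 in untreated A/J lung, and rose by 2.43 ± 0.41 (adjusted p = 0.000633). In C3H/HeJ it read 7.48, 7.84 and 7.68 with irradiation and 2.88, 3.08 and 3.89 without, a rise of 4.38 ± 0.41 (20.9-fold, adjusted p = 5.68e-06). In C57BL/6J the values overlapped, with 4.40, 4.06 and 3.50 in irradiated and 2.91, 3.84 and 3.47 in untreated lung, a difference of 0.58 ± 0.41 (adjusted p = 0.479). The effect on Il6 was larger in C3H/HeJ than in C57BL/6J by 3.80 ± 0.58 (adjusted p = 0.00618). Saa3, Lcn2, Serpina3n, Orm1, Fgg and Cp were higher in irradiated C57BL/6J lung, where Il6 was not called. Every C57BL/6J value of Il6 lay below the overall median (4.98), so a rise could have been missed. Its C57BL/6J difference was 0.14 to 1.24 over the other settings. The part of Il6 in the values of these genes was not tested.

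Socs3, a feedback inhibitor induced by STAT3, rose by 0.77 ± 0.19 in A/J (adjusted p = 0.00837) and 1.87 ± 0.19 in C3H/HeJ (adjusted p = 1.13e-05), with 0.36 ± 0.19 in C57BL/6J (adjusted p = 0.32). In irradiated C57BL/6J lung it read 8.48 in array 1 and 7.89 and 7.43 in the others, against 7.51 to 7.64 in untreated lung. The transcription factor gene Cebpd rose by 1.30 ± 0.20 in A/J and 1.35 ± 0.20 in C3H/HeJ (adjusted p = 0.00024 and 0.000172). Its C57BL/6J difference was 0.21 ± 0.20 (adjusted p = 0.617), and untreated C57BL/6J lung read 9.43, where the untreated means of A/J and C3H/HeJ were 8.34 and 8.52. Osmr, the receptor for oncostatin M, rose in all 3 strains, by 0.94 ± 0.14, 0.61 ± 0.14 and 1.00 ± 0.14 (adjusted p = 0.00018, 0.0195 and 0.000107). Il1b rose in C3H/HeJ by 1.77 ± 0.32 (adjusted p = 0.000961) and differed by −0.21 ± 0.32 in A/J and −0.45 ± 0.32 in C57BL/6J. The receptor Lifr fell by 0.71, 0.65 and 1.20 on the log2 scale (SE 0.17, adjusted p = 0.00685, 0.0379 and 0.00014). The shared subunit Il6st fell by 0.44 in C57BL/6J and 0.45 in C3H/HeJ (SE 0.11, adjusted p = 0.0331 and 0.0088), a direction that turned in C3H/HeJ without scaling (0.30). Il6ra was called in no strain.

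**Figure D4:**
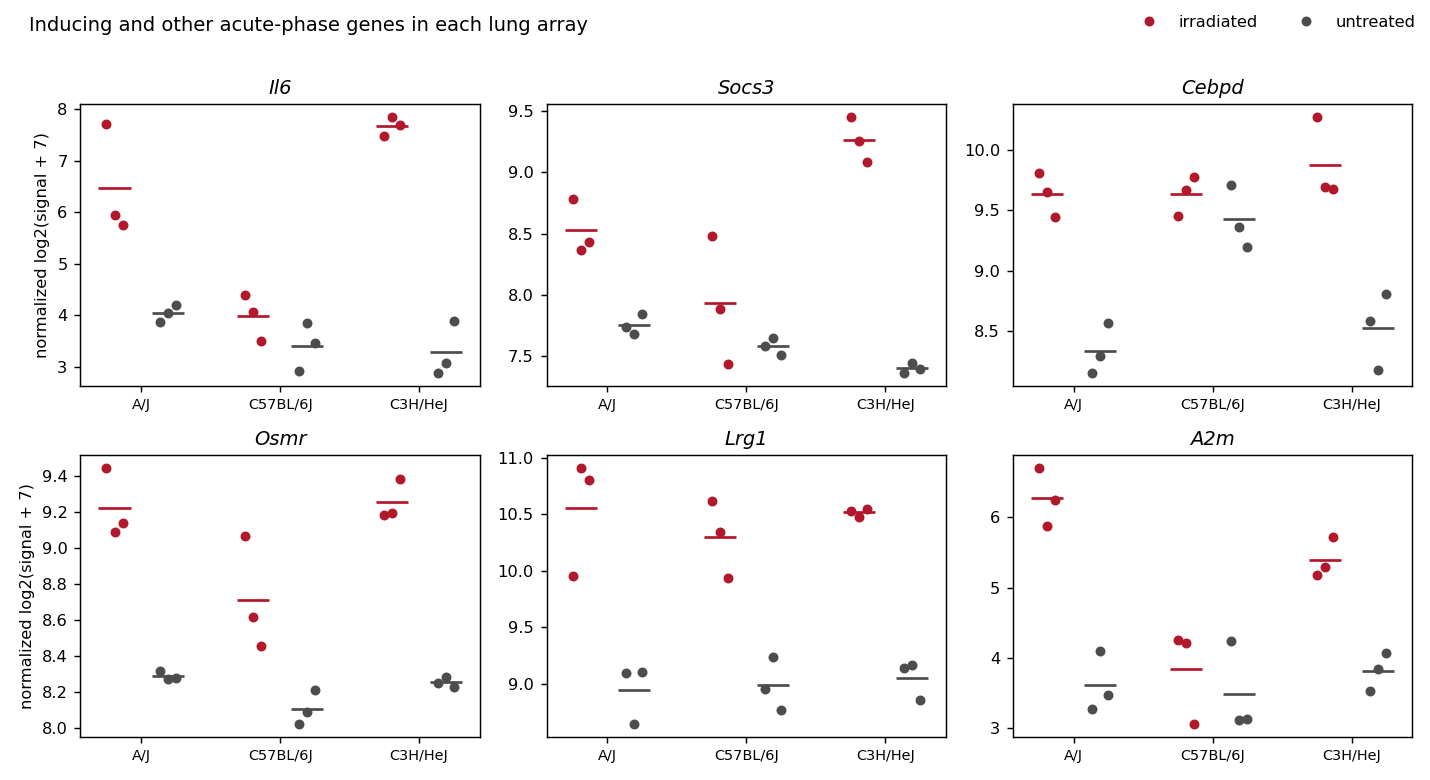
Normalized log2(signal + 7) of Il6, Socs3, Cebpd, Osmr, Lrg1 and A2m (vertical axes, each with its own range) in the 18 arrays, with irradiated arrays in red left of untreated arrays in grey and a line at the group mean (n = 3). Il6 lies at 7.48 to 7.84 in irradiated C3H/HeJ lung and at 3.50 to 4.40 in irradiated C57BL/6J lung.

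Partners and receptors of the proteins were represented by 24 of 30 listed genes. Of these 8 rose and 2 fell in A/J, 3 rose and 1 fell in C57BL/6J, and 12 rose and 2 fell in C3H/HeJ. That is 33.3%, 12.5% and 50% rising, beside 15.1%, 2.99% and 12.8% of all genes. The list's medians were 0.20, 0.18 and 0.50, beside 0.09, −0.01 and 0.01 for all genes. Nothing is read from these shares, as the list was chosen with earlier results of these data known. For haptoglobin and iron, the haptoglobin-haemoglobin receptor gene Cd163 rose by 1.05 ± 0.32 in A/J and 1.46 ± 0.32 in C3H/HeJ (adjusted p = 0.0241 and 0.00363). Haem oxygenase, Hmox1, rose by 1.46 ± 0.33 and 2.19 ± 0.33 in the same strains (adjusted p = 0.00497 and 0.000254). The iron exporter Slc40a1, ferroportin, rose by 1.17 ± 0.25 and 1.48 ± 0.25 (adjusted p = 0.00285 and 0.000554). In C57BL/6J these 3 differed by 0.17 to 0.41 and were not called, and the transferrin receptor Tfrc fell by 0.84 (SE 0.18, adjusted p = 0.0155). Hmox1, Slc40a1 and Cd163 thus rose in A/J and C3H/HeJ, where Hp was not called in either direction.

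For fibrinogen, the plasminogen activator Plat rose in all 3 strains, by 1.19 ± 0.12, 0.51 ± 0.12 and 1.17 ± 0.12 (adjusted p = 5.35e-06, 0.02 and 8.61e-06). Tissue factor, F3, which starts clotting, rose by 0.68 ± 0.15 in A/J (adjusted p = 0.00486) and 1.25 ± 0.15 in C3H/HeJ (adjusted p = 4.76e-05), with 0.17 ± 0.15 in C57BL/6J (adjusted p = 0.607). Lrp1, a scavenger receptor of protease-inhibitor complexes, rose by 0.70 ± 0.12, 0.53 ± 0.12 and 0.47 ± 0.12 (adjusted p = 0.000645, 0.0186 and 0.00969). Plaur, the urokinase receptor, rose in C57BL/6J by 0.50 ± 0.12 (adjusted p = 0.0243). Cd36, a scavenger receptor also carried by endothelium, fell by 1.49 in A/J and 1.08 in C3H/HeJ (SE 0.11, adjusted p = 4.58e-07 and 9.08e-06).

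**Figure D5:**
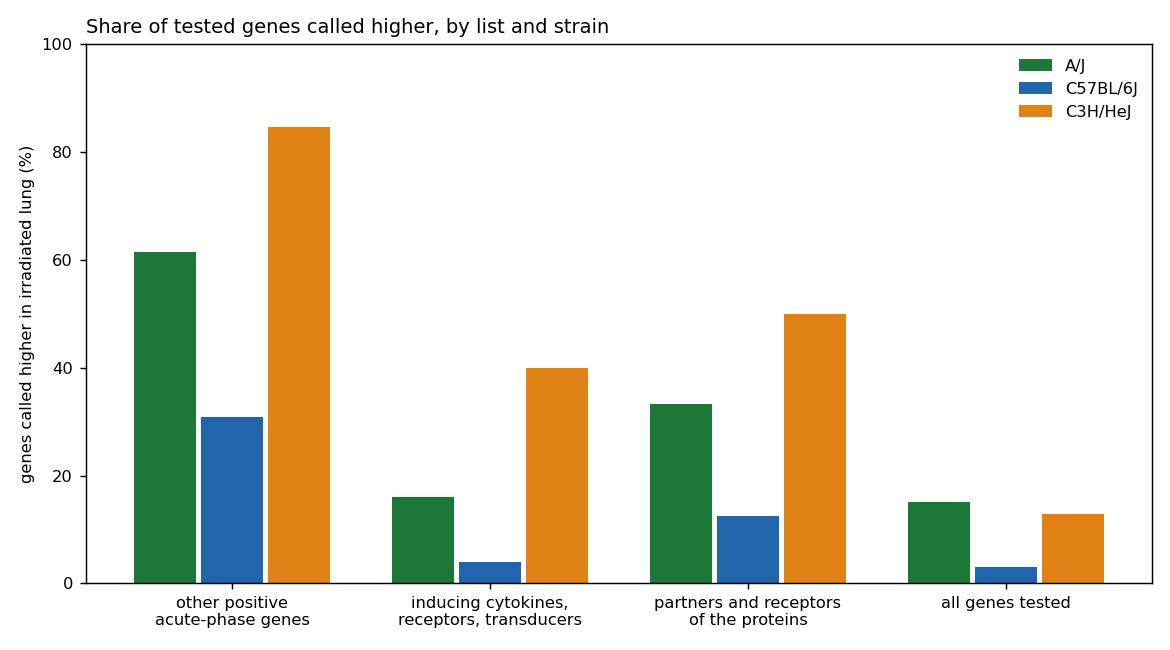
Share of tested genes called higher in irradiated lung (vertical axis, percent, from 0) for 3 gene lists of 13, 25 and 24 tested genes and for all 12412 genes, in A/J (green), C57BL/6J (blue) and C3H/HeJ (orange). The share for other positive acute-phase genes is 61.5%, 30.8% and 84.6%, and that of all genes 15.1%, 2.99% and 12.8%. Among the genes counted, Saa1, Fgl1, A2m, Ptx3 and Il6 passed the filter through irradiated arrays alone.

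Markers of other cells were set beside these results. Of 16 hepatocyte genes 15 had a probe set and 4 passed the filter, of which Cyp2e1 rose in A/J and in C57BL/6J, Hamp fell in C57BL/6J and 0 were called in C3H/HeJ. The summed signal of the list was 377 to 422 in irradiated and 312 to 378 in untreated A/J lung, 568 to 728 and 554 to 635 in C57BL/6J, and 348 to 481 and 378 to 480 in C3H/HeJ. Albumin, Alb, the chief liver product, had deposited signals of 2.4 to 17.5 in irradiated lung and 8.6 to 24.2 in untreated lung and was not kept. Transthyretin, Ttr, and the apolipoprotein Apoa1 were at 0.4 to 7.6 and 0.9 to 9.4 in irradiated lung. Of the kept hepatocyte genes, Hamp had group means of 5.55 to 6.61 in irradiated lung and 6.09 to 7.19 in untreated lung, and Cyp2e1 of 7.33 to 8.70 and 6.56 to 7.95. The part of hepatocyte transcripts in the 9 genes' values was not tested. Of the 9 negative acute-phase genes only Fetub and Rbp4 passed the filter. Fetub rose in A/J (1.23 ± 0.23, adjusted p = 0.00137) and C3H/HeJ (0.69 ± 0.23, adjusted p = 0.0421), and Rbp4 fell in C3H/HeJ by 0.68 (SE 0.16, adjusted p = 0.00577).

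Neutrophils carry lipocalin-2 in their granules, and their list (11 of 16 genes kept) summed to 1321 to 3459 in irradiated and 2431 to 2839 in untreated A/J lung, 3262 to 3935 and 3310 to 4101 in C57BL/6J, and 3282 to 3705 and 1680 to 2290 in C3H/HeJ. The sums overlapped in A/J and C57BL/6J and were separate in C3H/HeJ. In these strains 3, 1 and 4 of the 11 rose and 2, 0 and 0 fell. The granulocyte gene S100a8 fell in A/J (−0.79 ± 0.27, adjusted p = 0.0435) and rose in C3H/HeJ (0.79 ± 0.27, adjusted p = 0.0437), and these calls were lost in 16 and 14 of 27 other settings. S100a9, its partner, was called in no strain. The macrophage list (9 of 10 genes kept) had 7, 1 and 6 genes rising and 0 falling in the same strain order. Its sums were 10271 to 14621 in irradiated and 9249 to 9538 in untreated A/J lung, 11591 to 16125 and 11326 to 12132 for C57BL/6J, and 11807 to 13409 and 10015 to 10552 for C3H/HeJ. Mast cell markers rose in 6, 1 and 6 of 6. Of 6 lung epithelial markers 0 rose in any strain and 1 fell, in A/J. The squamous list (8 of 10 kept) summed to 207 to 4263 in irradiated and 157 to 183 in untreated A/J lung and to 137 to 171 and 197 to 6650 in C57BL/6J, with 1 of 8 falling in C57BL/6J and 1 rising in C3H/HeJ. The part of these cell shifts in the 9 genes' values was not tested.

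The C57BL/6J comparison rested on few arrays. All 6 calls there were lost without the 3 arrays high in squamous keratins, which leaves 1 untreated array and gave differences of 0.75 (Fgg) to 1.63 (Saa3). They were also lost when only the 2 C57BL/6J groups were fitted, with the same differences and a spread estimated from those 6 arrays alone. Krt4 differed by −5.56 ± 1.58 in C57BL/6J (adjusted p = 0.0525). Without C3H/HeJ irradiated array 3 the C3H/HeJ differences were 4.63 for Saa3, 2.88 for Lcn2, 3.17 for Serpina3n, 1.76 for Fgg and 0.93 for Cp. As these contrasts chose the genes, calls kept under other settings are no support for them and are not counted here. In C57BL/6J the call of Cp was lost without scaling as well.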

How the data were processed

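Each of the 18 arrays has a deposited intensity, on a linear scale, for 45101 probe sets, made with MAS5 (no version given) per the submitters' processing notes. MAS5 usually scales arrays to a common target, but array medians ran from 14.8 to 39.7, so whether and how the authors scaled them stays unknown. Background handling, scanner settings and hybridization dates are not given in the sources used here. From the deposited intensities, 64 control probe sets were dropped, and log2(signal + 7) was quantile normalized, where 7 is the rounded 25th percentile of all values. This log2 scale, computed from the deposited signals, understates changes of dim genes. A probe set was kept where 3 or more of the 18 arrays exceeded the overall median (25746 kept). The platform annotation, updated through gene identifiers, named 1 gene for 34945 probe sets and several for 932, and 9160 were not listed. A gene's brightest kept probe set stood for it, which gave 12412 genes.

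A model of 6 group means was fitted in limma 3.58.1 (R 4.3.3; lmFit, contrasts.fit, eBayes) on all 18 arrays, with 12 residual degrees of freedom, for irradiated against untreated lung per strain, the 3 pairwise differences between strains in that effect, and the 3 untreated strain pairs. Tests were two-sided, Benjamini-Hochberg adjusted over all genes, at 0.05, and the fit was tested on simulated data. Errors of differences are standard errors, and intervals are 95%. The number of arrays limits the precision. Moribund mice were separate animals per the labels, but for controls the labels do not say so, and p-values there may measure technical spread. No 2 arrays held identical values.

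The 9 genes and all gene lists were chosen with earlier results of these data known. From 4 lists, up to 4 called genes per strain with the largest change are named, with Il6, Il6ra, Socs3, Saa1, Saa2, Orm2, Alb, S100a8, S100a9 and Krt4 whatever their result, and other genes named beside them were chosen after their values were seen. Saa2 did not pass the filter. The nearest gene in pattern is the one with the highest Pearson correlation. Promoters were searched in Python 3 with RefSeq sequences, and Orm1 and Hp are named only. Alternatives were no scaling, median centring, 2 other pseudocounts, no filter, fitting only the groups compared, the mean of a gene's probe sets, the replicate number as a block, leaving out the 3 arrays high in squamous keratins, and leaving out each array in turn.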

Additional observations from a re-analysis of the deposited data

Results flagged for a closer look

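The size of the irradiation effect differed between strains, by a test of the difference itself in limma, for the following genes. Strain cannot be told apart here from time since exposure and age at death, which differed between strains. The actin ratio, which falls as RNA degrades, was 0.413 to 0.551 in irradiated A/J lung and 0.677 to 0.766 in all other arrays. The part of RNA quality in the differences of effects from A/J was not tested. Saa3 and Serpina3n were chosen on these same arrays, so their tests are not independent evidence. Their calls were lost in 1 to 11 of 27 other settings. A2m, Il6 and Ptx3 passed the filter through irradiated arrays alone, so their tests are not independent evidence either. Values are log2 differences of effects. Between C57BL/6J and A/J, Serpina3n differed by −1.52 (adjusted p = 0.0213), A2m by −2.31 (adjusted p = 0.0146), Hamp by −2.01 (adjusted p = 0.000505), Cebpd by −1.09 (adjusted p = 0.0324), Fetub by −1.59 (adjusted p = 0.0114) and Plat by −0.68 (adjusted p = 0.0237), all lower in C57BL/6J. Il6ra differed by 1.11 (adjusted p = 0.0237) and Cd36 by 1.21 (adjusted p = 0.000505), higher in C57BL/6J. Krt4 differed by −8.81 (adjusted p = 0.0317), a value that rests on A/J irradiated array 3 and C57BL/6J untreated arrays 1 and 3.

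Between C3H/HeJ and A/J, Saa3 differed by 2.35 (adjusted p = 0.0293), a call lost in 11 of 27 other settings, and Il1b by 1.99 (adjusted p = 0.0472). Between C3H/HeJ and C57BL/6J, Saa3 differed by 2.69 (adjusted p = 0.00978), Serpina3n by 1.80 (adjusted p = 0.0199), Il6 by 3.80 (adjusted p = 0.00618), Socs3 by 1.51 (adjusted p = 0.0119), Hamp by 1.57 (adjusted p = 0.00696), Ptx3 by 1.46 (adjusted p = 0.0429), Il1b by 2.22 (adjusted p = 0.0237), F3 by 1.08 (adjusted p = 0.0237) and Cd36 by −0.80 (adjusted p = 0.017).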

How the results depend on the processing

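Saa3, Lcn2, Serpina3n, Orm1, Fgg and Cp were higher in irradiated lung of all 3 strains in every alternative run, which is no support, since these contrasts chose them. Of 4131 single-gene values under the alternatives, 80 changed sign, 79 of them passing the threshold in neither setting, and the other was Il6st in C3H/HeJ without scaling (0.30, adjusted p = 0.472). The count of the 9 genes called higher in C57BL/6J fell to 0 with only the groups compared and to 0 without the 3 arrays high in squamous keratins, where fewer arrays estimate the spread. Counts of all genes called moved as follows. For irradiation in C57BL/6J (664) they were 220 without scaling, 342 with median centring, 408 with no filter, 79 with only the groups compared and 32 without the squamous arrays, and 4698 for A/J (2986) with median centring. For the difference of effects between C57BL/6J and A/J (677) they were 251 without scaling, 440 with no filter, 446 with only the groups compared and 87 without the squamous arrays. Between C3H/HeJ and A/J (132) they were 36 without scaling, 70 with median centring, 244 with pseudocount 32, 47 with no filter and 65 without the squamous arrays. Between C3H/HeJ and C57BL/6J (199) they were 323 with pseudocount 32, 99 with no filter and 18 without the squamous arrays. For untreated C57BL/6J against A/J (1289) they were 384 without scaling and 404 without the squamous arrays, for untreated C3H/HeJ against A/J (558) 251 without scaling and 353 with median centring, and for untreated C3H/HeJ against C57BL/6J (1344) 447, 812 and 420 without scaling, with median centring and without the squamous arrays. Without scaling, 2312 genes were called higher and 144 lower in A/J, and 3195 and 71 in C3H/HeJ, where quantile normalization gave 1875 and 1111, and 1594 and 1321. Median centring gave 4162 and 536, and 3015 and 461. The causes were not tested. Of the other genes named, calls were lost in 8 or more of 27 settings for Itih4 (17), Lifr (12), Il6st (12), Saa1 (11), Cfb (9) and Plaur (9) in C57BL/6J, S100a8 (14) and Fetub (11) in C3H/HeJ, and S100a8 (16) and Itih4 (8) in A/J.

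Leaving out each array in turn gave 219 to 850 genes for irradiation in C57BL/6J, 350 to 714 for the difference of effects between C57BL/6J and A/J, 33 to 199 between C3H/HeJ and A/J, and 82 to 371 between C3H/HeJ and C57BL/6J. For untreated lung it gave 853 to 1498, 328 to 662 and 891 to 1607 genes (C57BL/6J against A/J, C3H/HeJ against A/J, C3H/HeJ against C57BL/6J). Replicate numbers did not pair the arrays: deviations of same-numbered arrays correlated at −0.08 to 0.10. With the replicate number as a block, 2838, 582 and 2756 genes were called for irradiation (A/J, C57BL/6J, C3H/HeJ), and the same number of the 9 genes, 6, was called higher in each.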
